A study of Mus musculus with 4 samples.

Results

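The expression of genes for acute-phase proteins was followed on mouse oligonucleotide microarrays of E0771, a mouse breast carcinoma cell line. The genes named were 8, namely Saa1, Saa2, Saa3, Lcn2, Lrg1, Hp, C3 and Cp. They were chosen by gene symbol, and with earlier results of these same arrays known, so their values are given as a description without a test. Of the 8, 7 had a probe under their symbol, 1 probe each, among 19316 genes with a probe on the array. C3, the central complement protein, had no probe under that symbol in the annotation used and was not analysed here.

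E0771 cells were given medium alone (vehicle) or IL-26 at 30 ng/ml and were harvested after 6 h or 24 h. According to the methods the cytokine was a recombinant human dimer, so mouse cells received a human protein. Each of the 4 groups was 1 array of total RNA, amplified and labelled with Cy5, and all of them share the cell line and the culture medium. The arrays were made to find which genes changed after IL-26.

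Acute-phase proteins are secreted proteins whose production rises in inflammation, mainly in the liver but also in epithelial, stromal and tumor cells. IL-6 acting through STAT3, IL-1 and TNF acting through NF-κB, and factors of the C/EBP family are the classical inducers of their genes. Saa1 and Saa2 encode the serum amyloid A proteins that the mouse liver loads onto high-density lipoprotein, and Saa3 encodes the form made largely outside the liver, in macrophages, fat and epithelia. Lcn2 encodes lipocalin 2, which binds iron-carrying siderophores, and Lrg1 encodes leucine-rich alpha-2-glycoprotein, a secreted modifier of TGF-β signaling in blood vessels. Hp encodes haptoglobin, which captures free hemoglobin, and Cp encodes ceruloplasmin, a copper-carrying ferroxidase.

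The upstream sequences of the 3 genes that differed between arrays, and of Saa1 for contrast with Saa3, show which letters of the classical inducers' motifs lie before each start. Each is the 250 bases before the RefSeq start on GRCm38.p6, written 5′ to 3′ on the strand of the gene. Capitals mark matches on either strand to TTNNGNAA (C/EBP) or to the NF-κB pattern, which is GGG, then 5 bases of any kind, then CC. For Saa1 and Saa3 the annotated span of the gene reaches upstream of the start used, so the Saa3 window lies within the annotated gene and the Saa1 window overlaps it.
Saa3, chr7:46715677-46715926, minus strand: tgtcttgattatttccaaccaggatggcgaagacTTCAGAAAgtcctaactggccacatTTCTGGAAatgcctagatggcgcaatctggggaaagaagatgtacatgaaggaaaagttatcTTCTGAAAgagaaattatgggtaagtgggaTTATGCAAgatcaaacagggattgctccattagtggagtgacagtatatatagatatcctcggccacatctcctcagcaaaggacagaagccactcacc
Saa1, chr7:46742981-46743230, minus strand: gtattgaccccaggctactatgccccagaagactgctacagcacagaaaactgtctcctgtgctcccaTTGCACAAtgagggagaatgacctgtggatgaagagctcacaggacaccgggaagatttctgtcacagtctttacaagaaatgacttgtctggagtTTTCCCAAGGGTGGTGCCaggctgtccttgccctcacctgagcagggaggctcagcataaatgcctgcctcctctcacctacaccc
Lcn2, chr2:32387740-32387989, minus strand: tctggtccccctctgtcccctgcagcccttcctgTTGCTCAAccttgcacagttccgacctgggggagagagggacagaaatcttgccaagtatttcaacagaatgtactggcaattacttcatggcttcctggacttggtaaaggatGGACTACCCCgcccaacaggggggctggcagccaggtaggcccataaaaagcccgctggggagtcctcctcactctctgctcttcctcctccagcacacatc
Lrg1, chr17:56121947-56122196, minus strand: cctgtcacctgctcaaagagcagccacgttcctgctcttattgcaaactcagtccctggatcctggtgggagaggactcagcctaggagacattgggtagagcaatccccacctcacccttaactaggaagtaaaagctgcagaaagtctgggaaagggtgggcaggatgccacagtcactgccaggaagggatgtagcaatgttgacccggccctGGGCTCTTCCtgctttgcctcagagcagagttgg

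The Saa3 window held 4 matches to the C/EBP letters and 0 to the NF-κB letters. Of 32851 windows of this length in the RefSeq table, 36.8% held a C/EBP match and 0.591% held at least 4. The cut of 4 equals the Saa3 count, so that share is a description and no test of Saa3. The Saa1 window held 2 C/EBP matches, the second of which adjoins the single NF-κB match without overlapping it. Lcn2 had 1 match of each kind, and Lrg1 had a single NF-κB match, whereas 45.8% of all windows held one. STAT letters (TTCNNNGAA), present in 7.02% of the windows, had 0 matches in the windows of Saa1, Saa2, Saa3, Lcn2, Lrg1 and Cp, and Hp was not in the table. The Saa1 and Saa2 windows were 94.8% identical in a pairwise alignment, while Saa3 was 52.2% identical to Saa1 and 52.4% to Saa2. A match is a description of letters, and binding was not measured.

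Intensities below are the median brightness of a spot in the Cy5 channel. A spot counted as above the limit when it exceeded the mean of the array's 384 blank spots by 2 SD, which was 51.8 to 58.1 on the 4 arrays. The limit was lenient, since 32.3% to 52.1% of the 96 negative control spots and 11.6% to 31.7% of 3454 positions without a probe also exceeded it. All 7 probes were above it on all 4 arrays, as were 16928 of the 19316 genes with a probe. With 1 array per group no difference has a replicate check, and the number of arrays limits the precision. Whether the 4 cultures were independent of each other is not given in the labels. Differences are given as log2 of the normalized intensity, after an offset of 50 that shrinks the folds of dim spots.

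Saa3 read higher at 24 h than at 6 h in both treatments. Its probe (M200003295) read 76.2 in vehicle at 6 h, 72.1 in IL-26 at 6 h, 306 in vehicle at 24 h and 266 in IL-26 at 24 h. Both 24 h arrays were far above both 6 h arrays, and within a time the vehicle array was slightly the brighter. The log2 difference of 24 h against 6 h was 2.001 in vehicle, a fold of 4.00, and 1.93 in IL-26, a fold of 3.81. These comparisons share no array. Among the 18372 genes above the limit on at least 1 array, Saa3 ranked 10th from the highest in vehicle and 17th in IL-26. The log2 difference of IL-26 against vehicle was -0.04 at 6 h and -0.11 at 24 h, within or close to the SD of that difference over all genes, which was 0.10 at both times.

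The local background recorded beside the Saa3 spot moved with its intensity. It was 73.9, 57.9, 316 and 229 on vehicle 6 h, IL-26 6 h, vehicle 24 h and IL-26 24 h, so that the spot was 1.03, 1.25, 0.967 and 1.16 times its local background. On the 24 h arrays, where Saa3 lay between 200 and 400, gene spots of that brightness had a median ratio of 1.61 in vehicle and 2.27 in IL-26, and those in the same block of the array as Saa3 had 1.36 and 1.504. With this local background in place of the blank spots, the log2 difference with time became -0.13 in vehicle and 0.29 in IL-26, and that of IL-26 against vehicle turned to 0.12 at 6 h and 0.53 at 24 h. Under that setting 817 of the 18372 genes were past 2-fold with IL-26 at 24 h, against 1 with the blank spots. The 8 adjoining spots of Saa3 had a median of 50.9 to 56.4, and the brightest of them, Rab20, read 148 to 212. Negative control spots at or above the Saa3 value numbered 0 on every array, and of the positions without a probe 30 reached it on vehicle 6 h, 12 on IL-26 6 h and 0 on both 24 h arrays. The part of the local background in the Saa3 values was not tested.

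**Figure D1:**
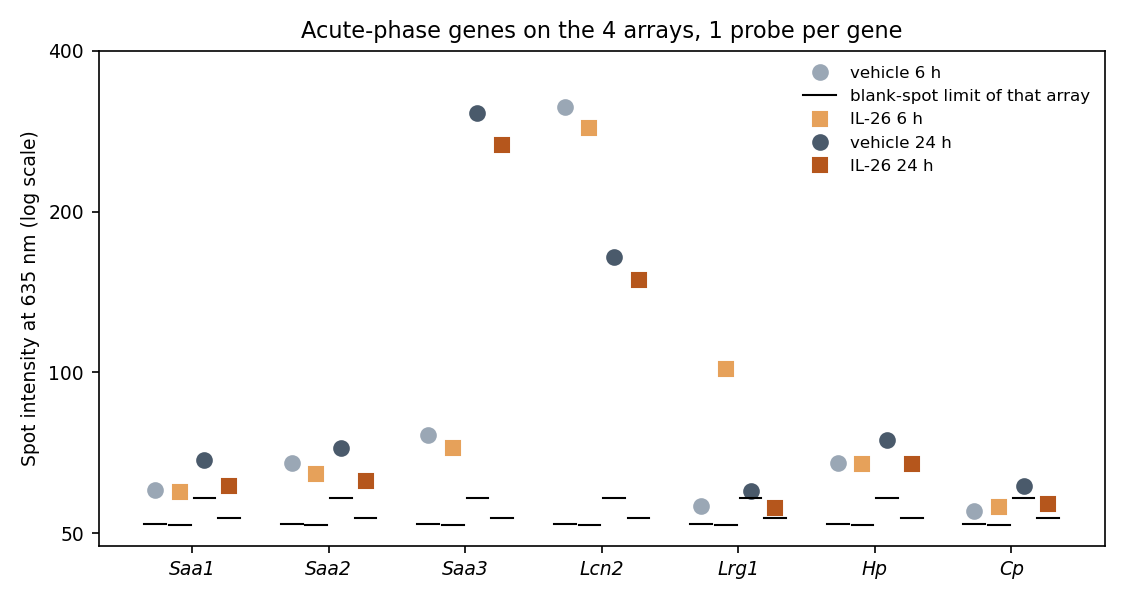
Spot median intensity (log scale) of the 7 acute-phase genes on each of the 4 arrays, with a short line at the blank-spot limit of that array. Saa3 read 306 and 266 at 24 h against 76.2 and 72.1 at 6 h, Lcn2 read lower at 24 h, and Lrg1 stood up on the IL-26 6 h array with 101.

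Lcn2 went the other way with time. The probe (M300005305) read 314 in vehicle at 6 h, 287 in IL-26 at 6 h, 165 in vehicle at 24 h and 149 in IL-26 at 24 h. Both 24 h arrays were below both 6 h arrays. The log2 difference of 24 h against 6 h was -0.93 in vehicle and -0.96 in IL-26, folds of 1.90 and 1.95 lower. Lcn2 ranked 71st and 64th from the lowest of the 18372 genes. IL-26 against vehicle differed by a log2 of -0.01 at 6 h and -0.04 at 24 h.

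The Lcn2 spot stood clear of its surroundings, at 1.59 to 4.03 times the local background. No negative control and no position without a probe reached its value on any array. With local background subtracted the difference with time was -0.69 in vehicle and -0.90 in IL-26, whereas the difference of IL-26 against vehicle became -0.56 at 6 h and -0.77 at 24 h. Large IL-26 differences were common under that setting, which put 1342 of the 18372 genes past 2-fold at 6 h and 817 at 24 h. With the blank spots those counts were 3 and 1.

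Lrg1 was set apart by a single array. The probe (M200011815) read 56.2 in vehicle at 6 h, 101 in IL-26 at 6 h, 60.1 in vehicle at 24 h and 55.8 in IL-26 at 24 h. The IL-26 6 h array was the bright one, and the other 3 lay near the limit. On the 24 h arrays, 4 of the 96 negative controls in vehicle and 3 in IL-26 were at or above the Lrg1 value, against 0 on both 6 h arrays. Of the positions without a probe, 97 reached it on vehicle 6 h, 5 on IL-26 6 h, 152 on vehicle 24 h and 69 on IL-26 24 h. The log2 difference of IL-26 against vehicle was 0.89 at 6 h, a fold of 1.85 and the third highest of the 18372 genes, and 0.02 at 24 h. With time it was -0.91 in IL-26, which uses the same bright array, and -0.04 in vehicle.

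Single arrays also stood out in other genes. Genes at least 1.5-fold higher on 1 array, with the other 3 within 0.2 on the log2 scale, numbered 3 on vehicle 6 h, 5 on IL-26 6 h, 6 on vehicle 24 h and 1 on IL-26 24 h. On IL-26 6 h these were Olfr197, Fpr-rs3, Lrg1, Fut7 and Cyct. The 8 spots adjoining Lrg1 had a median of 51.4 to 58.5, and the brightest of them, Suclg1, read 2169 on the IL-26 6 h array and 2491 on the vehicle 6 h array. Whether the Lrg1 value on that array would recur in another culture was not tested.

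The other 4 members stayed dim on every array. Saa1 read 60.1, 59.8, 68.4 and 61.3 on vehicle 6 h, IL-26 6 h, vehicle 24 h and IL-26 24 h. Saa2 read 67.5, 64.6, 72.3 and 62.7 in the same order. Both were brightest in vehicle at 24 h, the array with the highest blank-spot mean (56.5, against 49.6 to 51.9 on the others). Saa1 and Saa2 are close paralogs, so signal from one on the probe of the other cannot be told apart here.

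Hp read 67.6, 67.4, 74.6 and 67.3 in that order of arrays. Cp read 55.1, 56.01, 61.3 and 56.7. Like the liver-type Saa genes, both were brightest on the vehicle 24 h array before normalization. After normalization the log2 differences of Saa1, Saa2, Hp and Cp with time lay between -0.04 (Saa2 in IL-26) and 0.09 (Saa1 in vehicle). Against vehicle, IL-26 gave between -0.09 (Saa2 at 24 h) and 0.03 (Cp at 6 h).

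Counted at the 2-fold threshold of the study's methods, 1 of the 7 members (Saa3) passed with time in vehicle, where 1.07% of all genes did. With time in IL-26 it was again 1 (Saa3), beside 1.09% of all genes. Against vehicle, IL-26 put 0 members past 2-fold at 6 h (0.0163% of all genes) and 0 at 24 h (0.00544%). With the authors' deposited values, 290 genes passed 2-fold with IL-26 at 6 h and 380 at 24 h, against 3 and 1 here. With time those values put 990 genes past 2-fold in vehicle and 1086 in IL-26, against 197 and 201 here. At 1.5-fold the members numbered 2 with time in vehicle (background 4.59%), 3 in IL-26 (5.11%), 1 with IL-26 at 6 h (0.0816%) and 0 at 24 h (0.049%). The rule named genes already seen in these contrasts, and nothing is read from these counts. The median log2 difference of the 7 members was 0.02 with time in vehicle, -0.00 with time in IL-26, 0.01 with IL-26 at 6 h and -0.04 at 24 h, and that of all genes was -0.01, -0.00, -0.00 and 0.01.

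**Figure D2:**
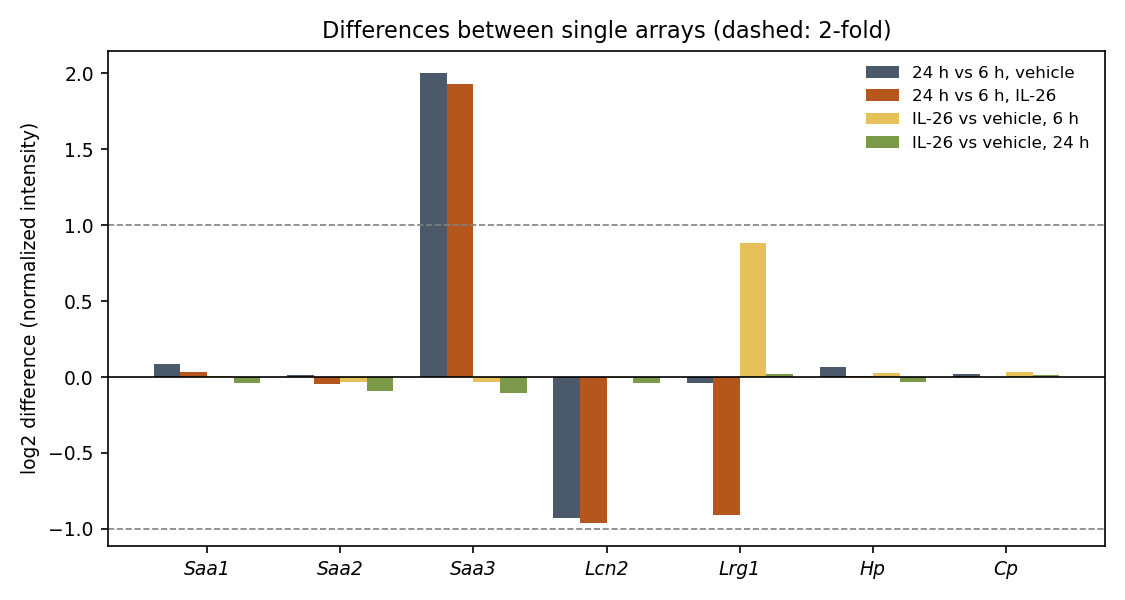
Bars show the log2 difference of normalized intensity between single arrays for each of the 7 members in the 4 comparisons, with dashed lines at 2-fold. Saa3 reached 2.001 and 1.93 with time, Lcn2 -0.93 and -0.96, and Lrg1 0.89 with IL-26 at 6 h.

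**Figure D3:**
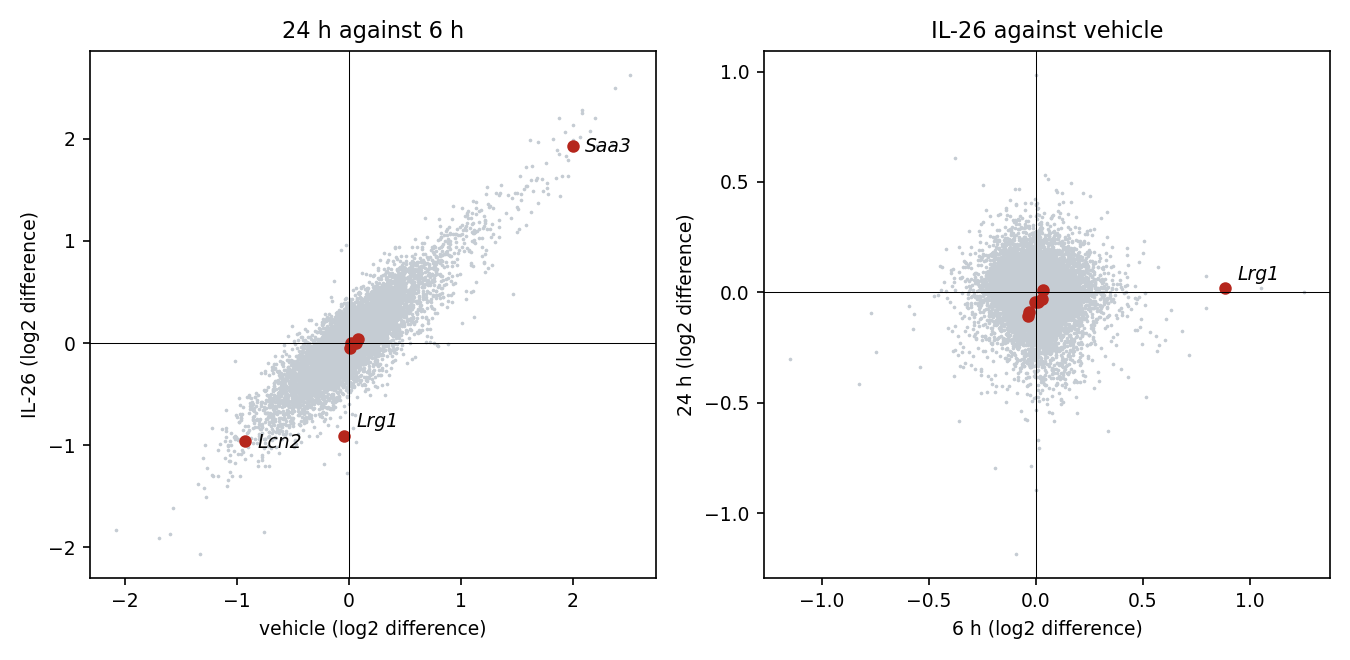
Each grey point is 1 of 18372 genes and red points are the 7 members, with the log2 difference of 24 h against 6 h in vehicle (x axis) and IL-26 (y axis) on the left, and of IL-26 against vehicle at 6 h (x axis) and 24 h (y axis) on the right. Saa3 lay toward the upper right and Lcn2 toward the lower left of the time plot, and Lrg1 lay to the right at 6 h and near 0 at 24 h.

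The genes whose pattern over the 4 arrays was nearest to each of these members were found by the distance between log2 values centred on each gene's own mean, over 16928 genes above the limit on every array. Nearest to Saa3 were Traf1 (distance 0.07), which encodes an adaptor of TNF receptors, then Isg15, Samd9l, Ier3 and Ptgds. In vehicle and IL-26 Traf1 read 85.2 and 81.2 at 6 h, against 339 and 310.1 at 24 h. Nearest to Lcn2 were Hexim1 (distance 0.04), an inhibitor of the elongation factor P-TEFb, then Cyb561d2, Dab2, Eif1b and Plet1os. Nearest to Lrg1 were Fut7 (distance 0.12), a fucosyltransferase, then Fpr-rs3, Cyct, Trps1 and Map2k3. Fut7 read 58.0, 98.1, 64.3 and 56.6 on vehicle 6 h, IL-26 6 h, vehicle 24 h and IL-26 24 h, so it too was bright on the IL-26 6 h array alone. With 4 arrays many genes share a pattern, and the likeness is a description.

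Lists of other acute-phase proteins, regulators of the response, and receptors and partners of the members were then compared over all 4 arrays. Like the members, the lists were chosen with earlier results of these data known. Most genes named from them are the extremes of their list, so their p-values are a description and no independent support. The difference with time averaged over treatments and that with IL-26 averaged over times were tested with limma in an additive model, with p-values adjusted over the 18372 genes. The test has 1 residual degree of freedom and borrows its spread from all genes. With 1 array per group, that residual is how far the time difference in IL-26 departs from the time difference in vehicle. It mixes array noise, which may be technical, with any effect of IL-26 present at 1 time only, and these cannot be separated. The p-values therefore measure differences against departure from additive effects on these 4 arrays, and not against a spread between replicate cultures. With time, 14.5% of all genes were higher and 14.4% lower by this test. With local background in place of the blank spots, limma called 0 of the 18372 genes with time after adjustment and 1057 at an unadjusted p under 0.05, against 5299 and 6804, so every call with time given next was lost under that setting.

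Of 30 other acute-phase proteins listed, 25 had a probe under their symbol and 24 were above the limit on some array and tested. With time 2 rose, 4 fell and 18 did not pass. C2, a complement protease, rose by 0.62 ± 0.09 (log2 ± SE, limma adjusted p = 9.38e-08), and Cfb, complement factor B, by 0.23 ± 0.04 (adjusted p = 1.57e-06). The C2 probe read 227 in vehicle and 186 in IL-26 at 6 h, then 328 and 299 at 24 h. The metallothioneins Mt1 and Mt2, which bind zinc and copper, had differences of -0.97 ± 0.10 (limma adjusted p = 1.29e-12) and -0.98 ± 0.10 (adjusted p = 1.33e-12). The Mt1 probe went from 9907 and 9332 at 6 h to 4428 and 4406 at 24 h. C4b, complement component 4B, had -0.32 ± 0.07, and Orm1, orosomucoid, -0.08 ± 0.03. The median of the list was -0.03, against -0.00 for all genes.

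Of 30 regulators 28 were tested, and of these 11 rose with time, 3 fell and 14 did not pass, with a median of 0.12. Housekeeping genes also passed, since of 10 tested 4 rose with time, 1 fell and 5 did not pass, with a median of 0.08. Relb and Nfkb2 encode subunits of NF-κB and Nfkbia encodes its inhibitor. Relb rose by 1.09 ± 0.09 (limma adjusted p = 1.15e-16), Nfkbia by 1.05 ± 0.11 (adjusted p = 5.34e-12) and Nfkb2 by 0.99 ± 0.10 (adjusted p = 2.78e-13). The Relb probe went from 163 and 148 at 6 h to 344 and 312 at 24 h. Tnf, the inflammatory cytokine, rose by 0.77 ± 0.06, and Nfkbiz, an atypical IκB protein that takes part in Lcn2 induction in mouse cells, by 0.48 ± 0.07. The NF-κB subunits Rela and Rel did not pass, at 0.23 ± 0.10 (adjusted p = 0.0829) and 0.06 ± 0.06 (adjusted p = 0.546). Il1rap, the accessory chain of the IL-1 receptor, fell, with a difference of -0.37 ± 0.06.

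Among genes of IL-6 signaling and the C/EBP family, Il6 rose by 0.27 ± 0.04 (limma adjusted p = 4.07e-09) although its spots were dim, at 58.7 and 57.8 at 6 h and 76.2 and 68.6 at 24 h. Cebpb, a C/EBP factor, rose by 0.68 ± 0.11 (adjusted p = 1.03e-06) and went from 1670.3 and 1620 at 6 h to 2657 and 2328 at 24 h. Stat3 rose by 0.29 ± 0.10 (adjusted p = 0.0168), whereas its target Socs3 gave 0.02 ± 0.10 (adjusted p = 0.929). Cebpd was above the limit on 1 array of 4. Cebpa, another C/EBP factor, and Il6ra, the IL-6 receptor, fell, with differences of -0.18 ± 0.06 and -0.11 ± 0.04.

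Of 28 receptors and partners 26 were tested, and of these 4 rose with time, 9 fell and 13 did not pass, with a median of -0.04. Tlr2, a receptor for serum amyloid A, rose by 0.99 ± 0.08 (limma adjusted p = 1.06e-16), from 116 and 118 at 6 h to 242 and 224 at 24 h. Tfrc, the transferrin receptor, rose by 0.82 ± 0.11, Scarb1, a lipoprotein receptor that also takes up serum amyloid A, by 0.79 ± 0.09, and Mmp9, the protease that lipocalin 2 binds, by 0.43 ± 0.04. Lrp2, megalin, an endocytic receptor for lipocalin 2, fell with a difference of -0.78 ± 0.08 (limma adjusted p = 5.36e-12), from 251 and 241 to 147 and 141. The complement regulators Cr1l and Cd59a had differences of -0.52 ± 0.07 and -0.43 ± 0.08. Slc22a17, another receptor of lipocalin 2, gave -0.03 ± 0.03 and did not pass (adjusted p = 0.43).

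**Figure D4:**
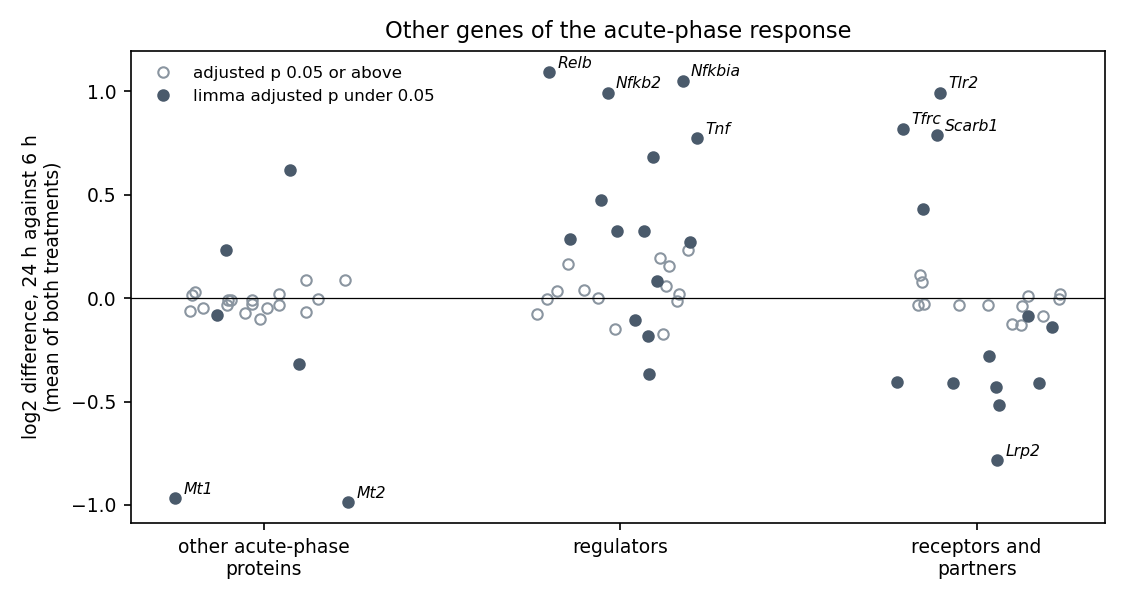
Each point is 1 gene of the 3 lists, placed by its log2 difference of 24 h against 6 h averaged over treatments, and filled where the limma adjusted p was under 0.05. The regulators Relb, Nfkbia and Nfkb2 lay near 1, and Mt1 and Mt2 near -1.

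For IL-26 against vehicle, 0 genes of the 3 lists passed in either direction, where limma called 0.169% of all genes higher and 0.321% lower. At an unadjusted p under 0.05, where 876 of the 18372 genes passed, 2 genes of the lists did, both regulators. They were Bcl3, a nuclear IκB protein, with a log2 difference of -0.13 ± 0.05 (limma adjusted p = 0.528), and Il1a, the cytokine IL-1α, with 0.07 ± 0.03 (adjusted p = 0.84). They were named after their values were seen. The list medians for IL-26 were -0.01 for other acute-phase proteins, -0.01 for regulators and -0.00 for receptors and partners.

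Markers of other cells were read on the same arrays, since several of the members are also made by liver, leukocytes and fat. Of all 19316 genes with a probe 18372 were above the lenient limit on some array, so the counts of markers above it say little. Of 12 hepatocyte markers with a probe 11 were above the limit on some array, with a summed intensity above blank of 708 to 976 over the 4 arrays, largely from Ass1, a urea cycle enzyme that read 531 to 808, and Tat never above the limit. Of 12 leukocyte markers 11 were, with sums of 569 to 744, lower at 24 h than at 6 h, and Itgam never above the limit. Those sums came largely from Cd68, at 421 and 388 at 6 h and 333 and 367 at 24 h in vehicle and IL-26, and from Lyz2. Lyz2 read 184 and 179, then 131 and 126, while the median log2 difference of the list with time was -0.03. Of 10 adipocyte and endothelial markers 8 were above the limit on some array, with sums of 201 and 184 at 6 h and 375 and 353 at 24 h in vehicle and IL-26. Adipoq and Lep were never above the limit, and the higher sum at 24 h came with Fabp4, a fatty acid binding protein, which went from 133 and 124 at 6 h to 323 and 305 at 24 h. The relation of these marker genes to the time differences of Saa3 and Lcn2 was not tested. All 10 breast epithelial markers were above the limit on some array, with sums of 1492 to 1904 largely from the keratin Krt8, and all 7 mesenchymal markers were, with sums of 16832 to 21246 largely from Vim. All 4 arrays were of the E0771 cell line, so these values are readings of marker genes in that line and not counts of other cells.

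How far the members' differences depended on the background correction is drawn for the 3 that differed between arrays. With the mean of the blank spots subtracted and no offset, Saa3 reached a log2 of 3.38 with time in vehicle and Lrg1 one of 3.27 with IL-26 at 6 h, against 2.001 and 0.89. Plain subtraction put Lrg1 with time in IL-26 at -3.54 and Saa3 at 3.36. With an offset of 200, Saa3 with time in vehicle and Lrg1 with IL-26 at 6 h were 0.99 and 0.30, and with local background Lrg1 gave 0.31. Lcn2 with time in vehicle ran from -1.22 to -0.55 over the settings tried.

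**Figure D5:**
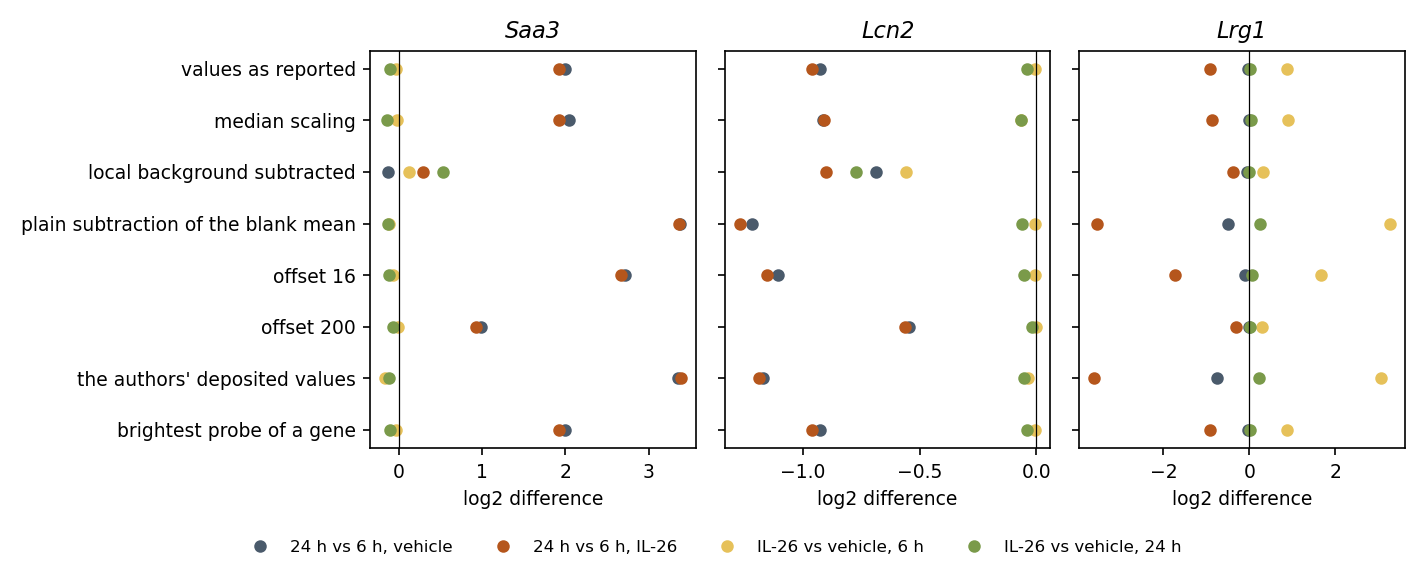
Points give the log2 difference of Saa3, Lcn2 and Lrg1 in the 4 comparisons (colours) under 8 ways of correcting, scaling and summarising the intensities (rows). The time difference of Saa3 in vehicle ran from -0.13 with local background to 3.38 with plain subtraction, while that of Lcn2 stayed below 0 in every row.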

How the data were processed

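The 4 arrays were 3D-Gene mouse oligo chips read in 1 colour. The deposited file of each array holds, per the file headers, the spot median intensity and local background, with nothing subtracted. The authors also deposited their own processed intensities for these arrays, with a median of 25.0 on each array and 6.49% to 7.88% of probes empty. How these were made is not given in the sources used here, and they served as an alternative.

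Intensities were corrected with normexp on the blank spots (offset 50), quantile normalized and put on the log2 scale with limma 3.58.1 in R 4.3.3. Probes of a gene were averaged. Genes above the blank mean plus 2 SD on at least 1 array (18372) were kept. An additive model of time and treatment left 1 residual degree of freedom, with a median of 63.8 prior degrees, and p-values were adjusted by Benjamini-Hochberg. Members were not tested. Symbols came from the platform annotation, which named 20690 of 23473 probes. For 20556 of these the RefSeq symbol of their gene ID was used, whether or not it differed. Probe sequences were not used here.

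The members and gene lists were chosen with earlier results of these data known. Named from each list were the 4 highest and 3 lowest genes with time among those past the test, with Il6, Stat3, Socs3, Cebpb, Cebpd, Nfkbiz and Nfkbia always, and the 5 genes nearest to Saa3, Lcn2 and Lrg1. Orm1, Slc22a17, Rela, Rel, Bcl3 and Il1a were added after their values were seen. The files name no build. Promoters were matched by symbol, 6 of the 7 members with a probe having one, and searched with Python 3.11.15, and figures were drawn with matplotlib 3.10.9. Alternatives were median scaling, local background, plain subtraction, offsets of 16 and 200, the authors' values, the brightest probe, no variance trend, and other filters on dim genes.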

Additional observations from a re-analysis of the deposited data

How the results depend on the processing

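The count of members at least 2-fold different with time in vehicle, 1 as reported, was 0 with local background or an offset of 200 and 2 with plain subtraction, an offset of 16 or the authors' values. Over all genes kept, 197 passed as reported, 1050 with local background and 63 with an offset of 200. Plain subtraction put 1180 genes past 2-fold, an offset of 16 put 331 and the authors' values 990. With time in IL-26 the count of members, also 1, was 0 with local background or an offset of 200, and 3 with plain subtraction, an offset of 16 or the authors' values. Over all genes kept it was 201 as reported, 399 with local background and 68 with an offset of 200. Plain subtraction put 1312 genes past 2-fold, an offset of 16 put 345 and the authors' values 1086. For IL-26 at 6 h the count of members, 0 as reported, was 1 with plain subtraction, an offset of 16 or the authors' values, each time Lrg1. Over all genes kept it was 3 as reported, 501 with plain subtraction, 10 with an offset of 16 and 290 with the authors' values. The time difference of Saa3 in vehicle turned to -0.13 with local background. Of the genes in the 3 lists, 17 rose and 16 fell with time, and with local background both counts were 0. With local background 1 gene of the lists was higher with IL-26, namely Jak1, at 1.99 ± 0.20 (limma adjusted p = 0.0385), against -0.02 as reported. Of all 18372 genes, limma called 265 for IL-26 under that setting, against 90 as reported. The cause of these changes was not tested.

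Of the 196 alternative values of single members 20 changed sign, 14 of them with local background. In 18 of the 20 the reported difference was under 0.1 in size, and the others were Saa3 with time in vehicle (above) and Saa3 with IL-26 at 24 h, from -0.11 to 0.53. Dim spots limit the comparison, since the offset sets the fold of a spot near the blank level. Leaving out an array was not run, as each group has 1 array. No paired analysis was possible because the labels carry no replicate numbers to pair cultures, although the additive model compared treatments within times.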
